A study of Mus musculus with 17 samples.

Results

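The replication-dependent histone genes were followed by the rank of RNA polymerase II summits in mouse bone marrow-derived macrophages. Members were the protein-coding genes of the mm10 build whose symbols begin with H1f, H2ac, H2bc, H3c or H4c and a number, or with the older prefix Hist1h to Hist4h. The rule took 67 of 21887 protein-coding genes, of which 10 encode linker histone H1, 17 H2A, 16 H2B, 12 H3 and 12 H4. It also took H1f0, H1f10, H1f6, H1f7 and H1f8, which are replacement or germ-line H1 genes rather than replication-dependent ones, and the testis pair H2ac1 and H2bc1. The libraries were chromatin immunoprecipitations with an RNA polymerase II antibody from N4bp1 knockout (KO) and wild-type (WT) cells. Each genotype was left untreated or given R837, an agonist of the Toll-like receptor TLR7, for 2, 4 or 6 h, with 2 libraries in each of the 8 groups and no further allele or agent named in the labels. The labels do not state the structure of the N4bp1 deletion, or whether replicates came from separate animals or cultures. P-values are thus about how far these particular libraries varied, and that variation may be technical.

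Replication-dependent histone genes supply the proteins that package newly copied DNA, and their transcription is known to peak in S phase of the cell cycle. They lie in dense clusters, are short and mostly without introns, and their mRNAs end in a conserved stem-loop in place of a poly(A) tail. H2A, H2B, H3 and H4 form the core of the nucleosome, while H1 binds the DNA that enters and leaves it. NPAT, a substrate of cyclin E and CDK2, gathers at the clusters in histone locus bodies together with FLASH. Gene-class factors then act on the promoters, among them OCT1 (Pou2f1) at the octamer of H2B genes and HINFP at H4 genes. Bone marrow-derived macrophages proliferate in response to M-CSF, and Toll-like receptor agonists are known to slow that proliferation.

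The members fell into 5 groups of neighbours and 4 lone genes, where neighbours less than 100 kb apart were joined. On chromosome 13, 17 members lay within 117.8 kb near 21.7 Mb, 5 within 8.5 kb near 22 Mb and 29 within 233.4 kb near 23.5 Mb. The testis pair H2ac1 and H2bc1 stood near 23.9 Mb of the same chromosome. On chromosome 3, 10 members lay within 50.3 kb near 96.2 Mb. The lone genes were H1f0, H1f7, H1f8 and H1f10.

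Promoters are shown because members that moved together are compared below by class and by shared start. RefSeq promoters of GRCm38.p6 matched 62 of the 67 members, with 63 promoters in all, and H3c7, H2bc4, H3c1, H2bc21 and H4c14 had none in the table. In the 250 bases before the start, 3 motifs were searched on both strands: the TATA box as TATAAA, the CCAAT box as CCAAT and the octamer as ATTTGCAT. None of the 3 contains another. Capitals mark each match, including its reverse complement. H4c4 and H4c3 had the best-ranked H4 summits with a known start, H1f2 the best H1 rank and H3c13 the best H3 rank. H2ac20 belongs to a trio with the best H2A rank, H2bc8 shares its start region with H2ac8, and H2bc1 is shown as a member at which no summit was listed.
H4c4, chr13:23581318-23581567, plus strand: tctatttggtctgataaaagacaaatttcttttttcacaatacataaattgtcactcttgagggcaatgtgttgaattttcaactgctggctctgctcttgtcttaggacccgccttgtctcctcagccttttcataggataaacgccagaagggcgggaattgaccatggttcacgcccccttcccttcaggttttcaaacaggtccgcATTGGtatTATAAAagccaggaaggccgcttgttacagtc
H4c3, chr13:23698459-23698708, minus strand: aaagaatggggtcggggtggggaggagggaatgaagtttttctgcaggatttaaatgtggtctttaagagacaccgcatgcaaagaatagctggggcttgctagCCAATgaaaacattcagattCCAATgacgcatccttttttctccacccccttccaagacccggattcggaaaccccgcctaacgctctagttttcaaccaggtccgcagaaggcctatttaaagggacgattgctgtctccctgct
H1f2, chr13:23738557-23738806, plus strand: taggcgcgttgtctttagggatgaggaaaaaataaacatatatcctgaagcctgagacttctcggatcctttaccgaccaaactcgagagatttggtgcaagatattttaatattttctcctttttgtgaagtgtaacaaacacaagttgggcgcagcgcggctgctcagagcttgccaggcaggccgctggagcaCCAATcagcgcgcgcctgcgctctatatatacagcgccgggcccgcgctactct
H3c13, chr3:96268404-96268653, plus strand: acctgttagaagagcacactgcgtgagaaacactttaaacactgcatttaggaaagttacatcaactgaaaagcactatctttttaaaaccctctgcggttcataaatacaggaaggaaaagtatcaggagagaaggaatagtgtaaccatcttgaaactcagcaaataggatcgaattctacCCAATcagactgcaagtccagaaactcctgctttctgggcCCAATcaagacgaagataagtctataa
H2ac20, chr3:96220881-96221130, minus strand: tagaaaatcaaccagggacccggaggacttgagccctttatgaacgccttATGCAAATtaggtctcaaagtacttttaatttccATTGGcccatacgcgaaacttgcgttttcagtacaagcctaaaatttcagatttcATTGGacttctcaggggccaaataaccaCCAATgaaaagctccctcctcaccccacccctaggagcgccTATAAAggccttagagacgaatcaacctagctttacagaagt
H2bc8, chr13:23571150-23571399, plus strand: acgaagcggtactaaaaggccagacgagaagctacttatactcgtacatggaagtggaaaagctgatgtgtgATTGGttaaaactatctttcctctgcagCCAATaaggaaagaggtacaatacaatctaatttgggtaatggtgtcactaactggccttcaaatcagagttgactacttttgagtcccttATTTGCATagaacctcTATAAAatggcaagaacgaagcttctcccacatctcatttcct
H2bc1, chr13:23934157-23934406, minus strand: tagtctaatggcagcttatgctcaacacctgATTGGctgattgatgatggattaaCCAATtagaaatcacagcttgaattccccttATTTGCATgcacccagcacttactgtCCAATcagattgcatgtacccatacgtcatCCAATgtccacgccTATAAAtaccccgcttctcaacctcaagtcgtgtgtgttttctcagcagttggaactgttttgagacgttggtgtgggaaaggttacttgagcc

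The TATA box was in 28 of the 63 member promoters (44.4%), against 12.4% of all 32851 promoters in the table. The CCAAT box was in 50 of 63 (79.4%), against 33.8% of all promoters. It was present in all 17 H2A and all 15 H2B promoters but in 3 of 11 H4 promoters. The octamer was in 13 of 63 (20.6%), against 1.6% of all promoters, with 6 in H2A genes, 7 in H2B genes and 0 in H1, H3 or H4 genes. H2bc1 holds all 3 motifs in this window and had no summit in any library.

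Each deposited file lists 1-base peak summits with a score, and only the order of the scores within a list was used. All 16 lists were shortened to the 8394 best summits, the length of the shortest list. A gene took the best rank among summits within its span extended by 1 kb on each side, where rank 1 is the strongest. The rank score is log2 of 8395 over the rank, and is 0 where no summit was listed, so that a difference of 1 is a 2-fold difference in rank. Deposited lists held 8394 to 29760 summits, and read depth was not given in the sources used here. Codes in the peak names fall into 3 series (untreated with 2 h, 4 h, and 6 h). Differences of 4 h or 6 h from untreated therefore cannot be told apart from differences between those series, while the 2 h difference lies within one. Within that series list length still differed with treatment. As deposited, the 2 h lists held 9402 to 13825 summits and the untreated lists 20607 to 24720. The second KO library at 6 h stood apart: at most 0.0874% of its scores recurred in another list, and its top score of 563.5 compared with 320.4 or less elsewhere. Of 10 macrophage markers, 7 to 9 had a summit in R837 libraries and 9 in each untreated library. Of 6 T and NK cell markers, 0 or 1 had one in R837 libraries and 0 in untreated libraries, and neutrophil markers gave the same counts. Of 5 dendritic cell markers, 1 or 2 had one in R837 libraries and 1 in untreated libraries, and B cell, mast cell, erythroid and stromal markers had 0 throughout. The N4bp1 region itself had a summit in all 12 R837 libraries and in no untreated shortened list. Its rank was 537 to 1713 in the 6 KO libraries and 947 to 3442 in the 6 WT libraries, so a summit there does not check the deletion.

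Histone gene regions were among the strongest polymerase sites of untreated macrophages, and fewer of them were listed after R837. A summit was found at 25 to 51 of the 67 member regions in R837 libraries (median 33.5, mean 35.2 ± 8.71, SD, n = 12). It was found at 54 to 58 in untreated libraries (56.2 ± 1.71, SD, n = 4), so the groups did not overlap. In chromatin pooled from many cells, fewer cells transcribing these genes and less polymerase per cell cannot be told apart. Neither can be told from an equal signal that left the shortened list as other sites rose, since ranks hold no absolute level. As a share of members these were 37.3% to 76.1% in R837 libraries and 80.6% to 86.6% in untreated libraries. The share of all protein-coding genes with a summit was also lower, at 12.3% to 26.9% in R837 libraries and 29.4% to 30.6% in untreated libraries. The difference in members was -21.1 regions, or -14.7 in the lists as deposited. Distinct member summits numbered 20 to 49 in R837 libraries and 58 to 68 in untreated libraries.

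Members were also fewer at the top of each list after R837. Among the 100 best summits of a library, 0 to 5 members were found in R837 libraries (median 0, with any member in 4 of the 12), and 8 to 10 in untreated libraries. These were 0 to 3 distinct summits in R837 libraries and 5 to 7 in untreated libraries. Among the 1000 best, members numbered 3 to 18 in R837 libraries (median 10.5) and 27 to 38 in untreated libraries (median 33.5). Counts of all genes among the best 100 or 1000 summits are not given here, so these member counts have no background beside them.

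**Figure D1:**
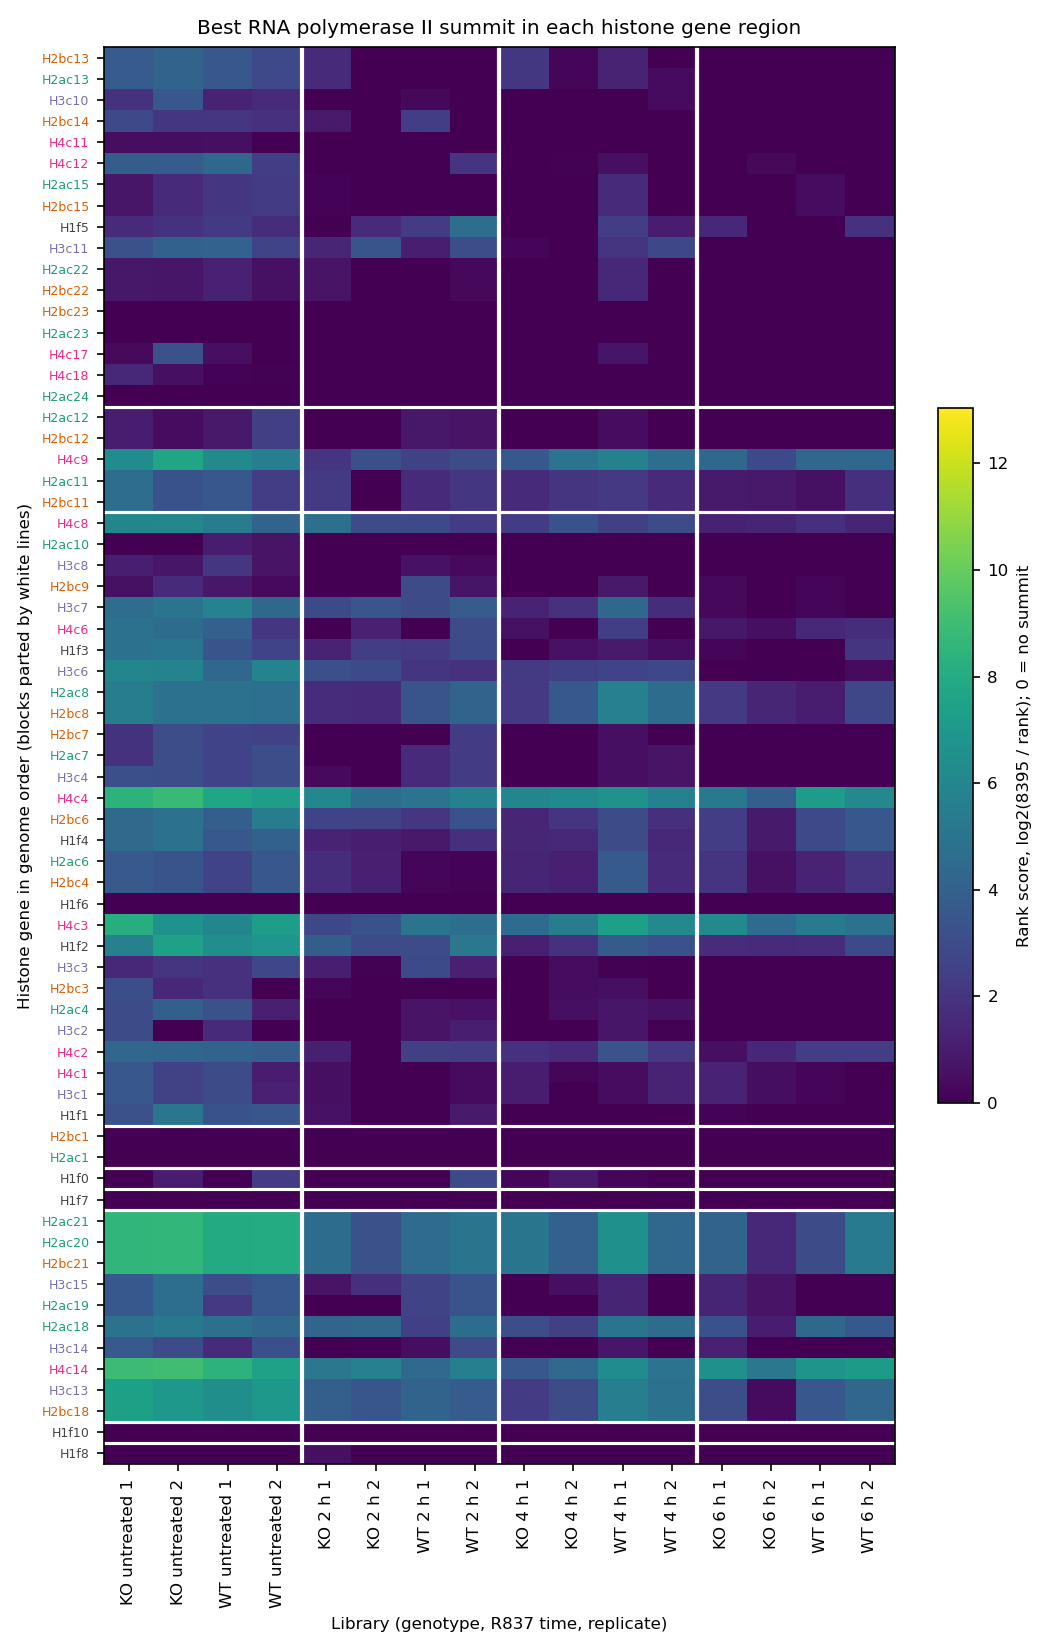
Rank score (log2, colour) of the best summit for the 67 histone genes in genome order (rows, label colours by class) across the 16 libraries (columns, by R837 time, KO and then WT). Untreated columns are bright at the chromosome 3 genes and at H4c4, H4c3 and H4c9, where scores are lower in most R837 columns, and 8 genes stay at 0 throughout.

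Many of these regions are read through the same summit. In the shortened lists, 39 of the 67 members shared their best summit with a neighbour in at least 1 library, and 1 of them, H1f0, shared it with a gene outside the set, Gcat, in 1 library. In 8 sets the best summit was the same in every deposited list. Of these sets 5 are H2A and H2B genes transcribed away from each other: H2ac15 with H2bc15, H2ac22 with H2bc22, H2ac12 with H2bc12, H2ac11 with H2bc11, and H2ac8 with H2bc8. Their starts lay 163, 239, 177, 248 and 179 bases apart in that order. The other sets were H2ac6 with H2bc4, H3c13 with H2bc18, and the trio H2ac21, H2ac20 and H2bc21. Members of a set give 1 measurement, not 2 or 3.

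Of the 67 members, 58 were listed in 2 or more of the 16 shortened lists and were tested, as were 8475 of all genes. The 9 untested members were H2bc23, H2ac23, H2ac24, H1f6, H2ac1, H2bc1, H1f7, H1f10 and H1f8. H1f8, the oocyte H1, was listed at rank 5731 in 1 library, the first KO library at 2 h, and the other 8 had no summit in any deposited list. For H2bc23, H2ac23 and H2ac24, 70.4%, 55.8% and 70.4% of the 75-base windows of their promoters were also found at another place. Reads there may be misassigned, so a missing summit at these genes is uncertain.

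After R837, over all times and both genotypes, polymerase rank fell at 50 of the 58 tested members and rose at 0, at a limma adjusted p under 0.05. Over all genes tested, 29.5% fell and 5.79% rose. The median change of the tested members was -2.21 in rank score, against -0.33 over all genes tested. A gene with a low untreated score has little room to fall, and genes were not matched to members on untreated rank. The shares and medians of all genes are thus not like measures. All 58 changes were below 0. Since a member with no summit after R837 had to be present in untreated lists to be tested, the 20 members with a summit in all 16 shortened lists were also read separately. Of these, 19 fell, with a median change of -2.38. Of the 1117 genes with a summit in all 16 shortened lists, 20.9% fell and 13.2% rose, with a median of -0.31. These genes were not matched to the members on untreated rank either. With each set of identical summits counted once, 42 of 49 fell. Within gene spans with no extension, 25 of 40 tested members fell, and when summits were counted in place of ranks, 28 of 58 fell and 1, H1f4, rose. Groups of libraries did not overlap at 24 of the 67 members, all lower after R837, against 8.24% of all genes tested, while 2.05% of all genes were higher without overlap.

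By class, 4 of 6 tested H1, 12 of 14 H2A, 12 of 14 H2B, 11 of 12 H3 and 11 of 12 H4 genes fell. By place, 9 of 10 fell on chromosome 3, 26 of 28 near 23.5 Mb, 5 of 5 near 22 Mb and 10 of 14 near 21.7 Mb of chromosome 13. The median change was -3.20 on chromosome 3 and -1.52 near 21.7 Mb. Untreated median scores were 3.08 to 8.70 on chromosome 3 and 0.34 to 3.82 at the 14 tested members near 21.7 Mb. The score cannot go below 0, so the latter had less room to fall and the 2 medians are not like measures. The genes that fell thus spanned every core histone class and each of the 4 large groups of neighbours. The difference between classes or places was not tested.

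**Figure D2:**
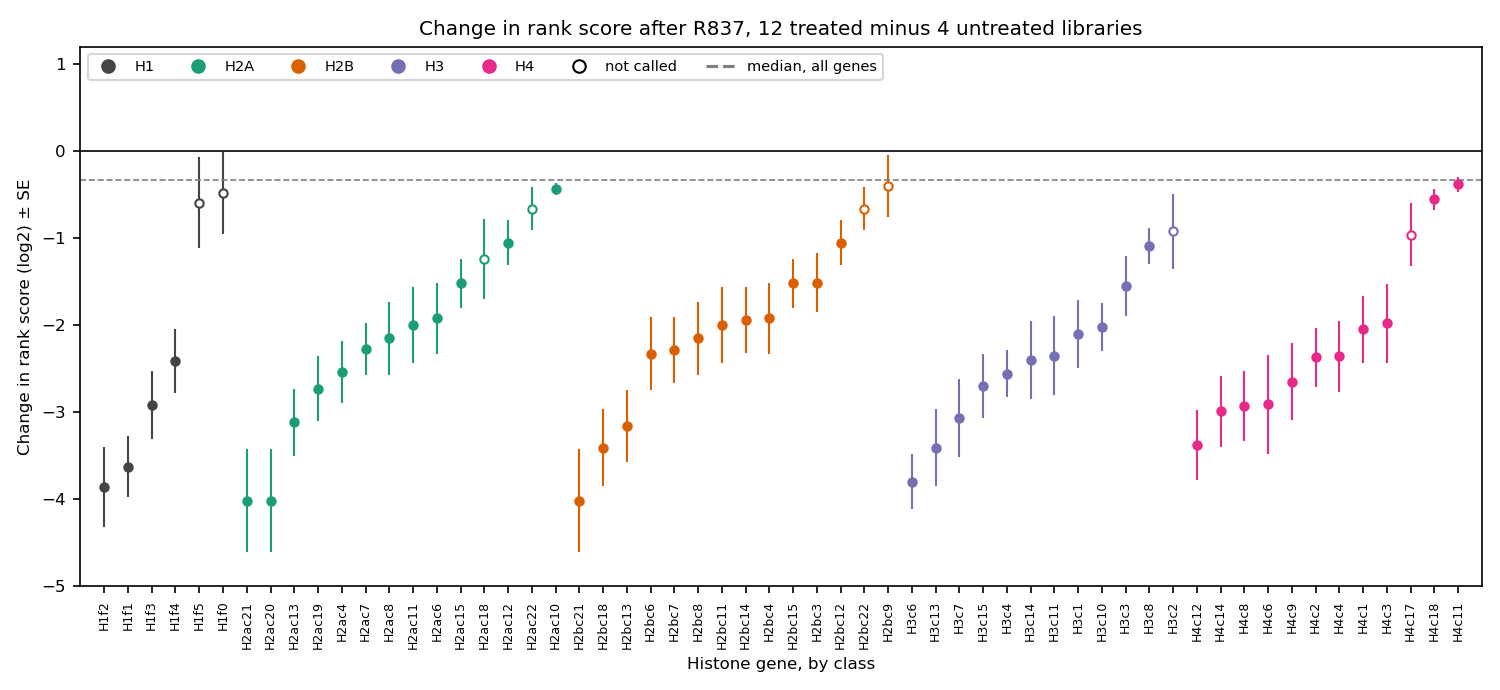
Change in rank score (log2, 12 R837 minus 4 untreated libraries) with its standard error for the 58 tested members, ordered by size within each class. All points lie below 0, filled points passed the test, and the dashed line is the median of all genes tested, -0.33.

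Of the H4 genes, whose product pairs with H3 in the nucleosome core, H4c14 and H4c4 had the best ranks. H4c14 ranked 60 at best, 201.5 at the median and 726 at worst in R837 libraries, against 17 and 16 in KO and 24 and 47 in WT untreated libraries. No R837 library reached the untreated ranks. The mean rank score was 5.49 in R837 libraries and 8.48 in untreated libraries, a change of -2.99 ± 0.41 (SE, n = 12 and 4, adjusted p = 0.000137). H4c4 ranked 56, 145 and 570 at best, median and worst in R837 libraries, against 24 and 19 in KO and 40 and 52 in WT untreated libraries. Its groups did not overlap either, although the best R837 rank, in a WT library at 6 h, came within 4 ranks of the untreated range, and the change was -2.36 ± 0.41 (adjusted p = 0.000668). H4c3 ranked 51, 268 and 1180 at best, median and worst in R837 libraries, against 30 and 81 in KO and 132 and 53 in WT untreated libraries. Here the groups overlapped, since 3 R837 libraries ranked 51, 112 and 119, better than the weakest untreated one. Its change was -1.98 ± 0.45 (adjusted p = 0.00408).

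Farther down the list, H4c9 ranked 159, 555.5 and 2188 at best, median and worst in R837 libraries, against 104 and 41 in KO and 111 and 174 in WT untreated libraries. H4c8 ranked 301, 1622.5 and 3649 in R837 libraries, against 135 and 126 in KO and 184 and 476 in WT untreated libraries. Both overlapped by 1 library of each group, and their changes were -2.65 ± 0.44 and -2.93 ± 0.40. H4c12 was listed in 4 of 12 R837 libraries, at rank 2126 or worse, and at 582 and 609 in KO and 397 and 1549 in WT untreated libraries. Its change, -3.38 ± 0.40, was the largest of the H4 genes. H4c6 (-2.91 ± 0.57) and H4c2 (-2.37 ± 0.34) also fell. H4c17 was listed in 1 R837 library, at rank 5109, against 6658 and 896 in KO and 5908 and none in WT untreated libraries. Its near-copy H4c18 was listed in no R837 library, against 3053 and 5700 in KO and 7739 and 8064 in WT untreated libraries. For this pair 93.4% of the promoters' 75-base windows were also found at the other gene, so reads of the 2 may be misassigned.

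On chromosome 3, the trio H2ac20, H2ac21 and H2bc21, core genes of the H2A and H2B classes, changed most in rank score of all members. Their shared summit ranked 91, 381.5 and 3048 at best, median and worst in R837 libraries, against 22 and 21 in KO and 34 and 32 in WT untreated libraries. Every R837 library ranked lower than every untreated one, and the worst was the second KO library at 6 h. The mean rank score was 4.28 in R837 libraries and 8.30 in untreated libraries, a change of -4.02 ± 0.59 (SE, n = 12 and 4, adjusted p = 0.000198). Without any one library the change ran between -4.24 and -3.79. Within each gene's span alone none of the 3 passed, and H2ac21 and H2bc21 changed by 2.67 and 0.09. The best H2ac21 summit lay past the gene end in 7 of 12 R837 libraries and 4 of 4 untreated libraries. Counted as summits, the trio changed by 0.48 (H2ac21), 0.56 (H2ac20) and 0.41 (H2bc21), and none passed.

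H2bc18 and H3c13, which read the same summit at the far end of this group, ranked 176, 663.5 and 6446 at best, median and worst in R837 libraries. In untreated libraries the ranks were 49 and 68 (KO) and 95 and 68 (WT), and the groups did not overlap. The change was -3.41 ± 0.44 (adjusted p = 8.8e-05). This summit lay inside H2bc18, 29 to 207 bases past its start in R837 libraries and 120 to 286 in untreated libraries. It lay more than 1 kb past the start of H3c13. Within 500 bases of its own start, H3c13 had a summit in 4 of 12 R837 libraries, ranked 5110 to 8186. In untreated libraries that summit was present in 4 of 4, ranked 866 and 1178 in KO and 482 and 662 in WT, each better than any R837 rank. H4c14 lies between these genes and the trio. H3c14, H3c15 and H2ac19 fell by 2.40, 2.70 and 2.73 on the log2 rank scale. H3c14 and H3c15 share 69.5% of their promoters' 75-base windows and H2ac18 and H2ac19 share 64.2%, so the split of reads within each pair is uncertain. H2ac18 ranked 253, 564 and 4034 at best, median and worst in R837 libraries, against 285 and 216 in KO and 304 and 405 in WT untreated libraries, and its change of -1.24 ± 0.46 did not pass (adjusted p = 0.052).

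**Figure D3:**
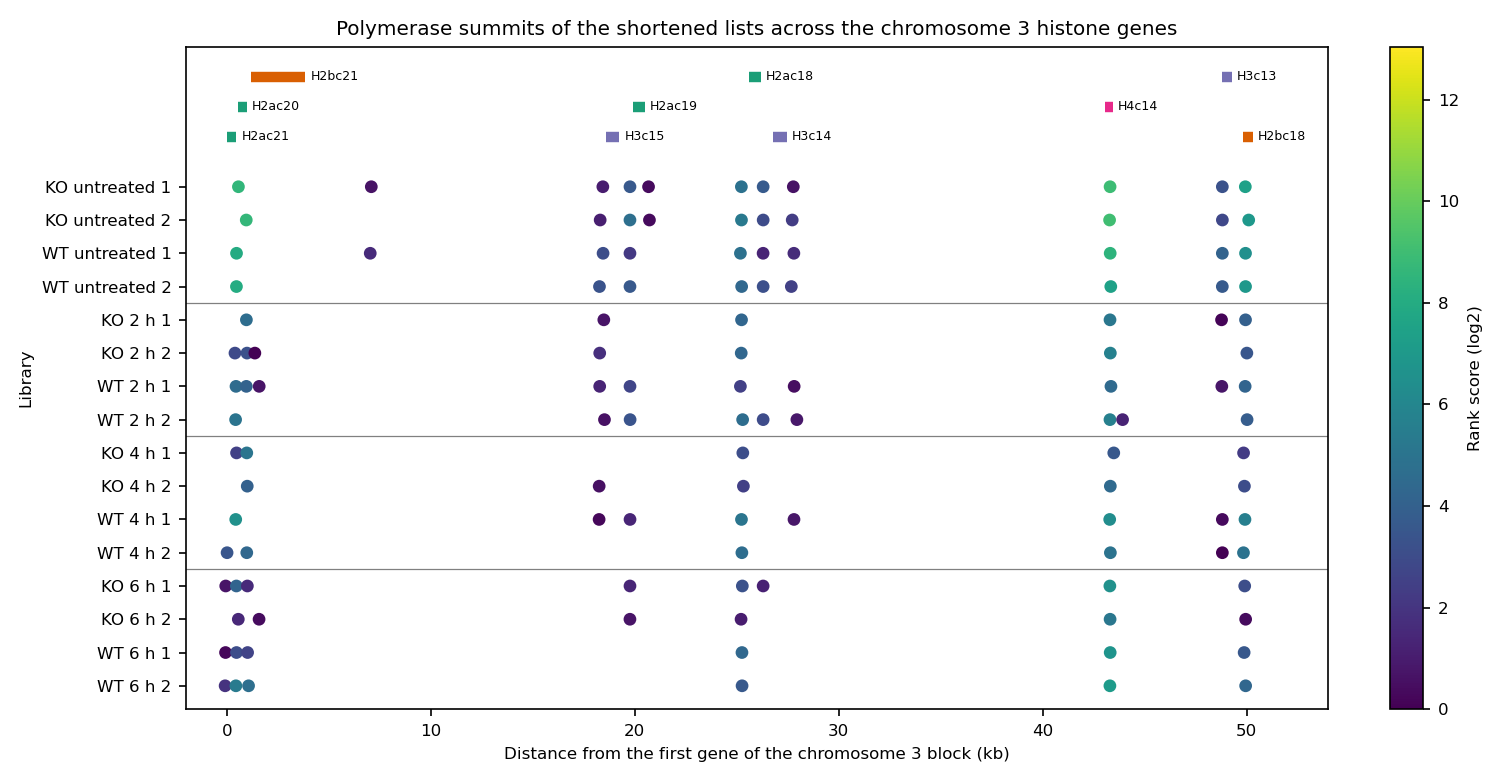
Summits of the shortened lists along the 10 histone genes of the chromosome 3 group (x axis, distance in kb from the first gene; y axis, library; colour, rank score in log2; bars at the top, genes by class). The same places carry summits in most libraries, with untreated scores highest at the trio on the left and at H4c14, and the summit at the start of H3c13 is listed in 4 of 12 R837 libraries and 4 of 4 untreated ones.

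Of the 6 tested H1 genes, 4 fell and H1f5 and H1f0 did not pass. H1f2, which encodes an abundant somatic linker histone, ranked 237, 1097 and 3758 at best, median and worst in R837 libraries, against 163 and 47 in KO and 100 and 73 in WT untreated libraries. No R837 library reached the untreated ranks, and the change was -3.86 ± 0.46 (adjusted p = 4.79e-05). H1f1 was listed in 3 of 12 R837 libraries, at rank 4375 or worse, and at 897 and 241 in KO and 856 and 759 in WT untreated libraries (change -3.63 ± 0.35, adjusted p = 8.17e-06). H1f3 and H1f4 fell, with changes of -2.92 and -2.41. Within the gene span alone, H1f2 and H1f4 changed by 1.06 and 0.09 and neither passed, and their best summits in untreated libraries lay past the gene end in 4 of 4 and 3 of 4. H1f5 ranked from 326 to 4251 in the 7 of 12 R837 libraries that listed it, against 2881 and 2243 in KO and 1786 and 2544 in WT untreated libraries. Its best rank was thus in an R837 library, the second WT library at 2 h, and its change of -0.59 ± 0.52 did not pass. H1f0, the replacement H1 of resting and differentiated cells, was listed in 4 of 12 R837 libraries and 4 of 4 untreated libraries and changed by -0.48 ± 0.47.

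Of the H3 genes, H3c6 gave the smallest p-value of all members. It ranked 916 at best and 8365 at worst in the 10 R837 libraries that listed it, against 133 and 149 in KO and 409 and 147 in WT untreated libraries. It was not listed in 2 libraries at 6 h, and the other 2 of that time ranked 8365 and 6530. Its mean rank score was 1.70 in R837 libraries and 5.50 in untreated libraries (change -3.80 ± 0.32, adjusted p = 2.25e-06). H3c7 and H3c4 fell by 3.07 and 2.56 on the log2 rank scale. H3c2 was listed in 4 of 12 R837 libraries and 2 of 4 untreated libraries, and its change of -0.92 ± 0.43 did not pass.

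Of the divergent pairs, H2ac8 with H2bc8 ranked 161, 1535 and 4242 at best, median and worst in R837 libraries, against 186 and 284 in KO and 282 and 312 in WT untreated libraries. The groups overlapped through the first WT library at 4 h, which ranked 161, and the change was -2.15 ± 0.42 (adjusted p = 0.00154). H2ac11 with H2bc11 changed by -2.0 ± 0.44, and H2ac15 with H2bc15 by -1.52 ± 0.28, and both passed. H2ac12 with H2bc12 passed at -1.05 ± 0.26, while H2ac22 with H2bc22 changed by -0.66 ± 0.25 and did not (adjusted p = 0.0509). H2ac13 and H2bc13, in the first group of chromosome 13, fell by 3.12 and 3.16, and H2ac4 by 2.54, on the log2 rank scale. H2bc9 changed by -0.40 ± 0.36 and did not pass.

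The lower ranks were present at each time. At 2 h against untreated, within one series of codes, 46 of 58 members fell, against 24% of all genes tested, with a median change of -2.0. At 4 h, 45 fell, against 19.8% of all genes, with a median of -1.94. At 6 h, 53 fell, against 23.3% of all genes, with a median of -2.41. No member rose at any time, while 4.84% of all genes rose at 2 h, 5.71% at 4 h and 6.35% at 6 h. The 3 comparisons share the 4 untreated libraries, and differences between times were not tested. Without the second KO library at 6 h, 47 members fell at 6 h and 50 over all times. Members with a summit numbered 40 and 28 in KO and 41 and 50 in WT libraries at 2 h, 30 and 35 in KO and 51 and 34 in WT libraries at 4 h, and 33 and 27 in KO and 28 and 25 in WT libraries at 6 h. The first WT library at 4 h was the R837 library most like the untreated ones, with a median rank score of 5.58 over the 20 always-listed members, against 1.38 to 4.36 in the other R837 libraries and 5.54 to 6.38 in untreated ones.

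**Figure D4:**
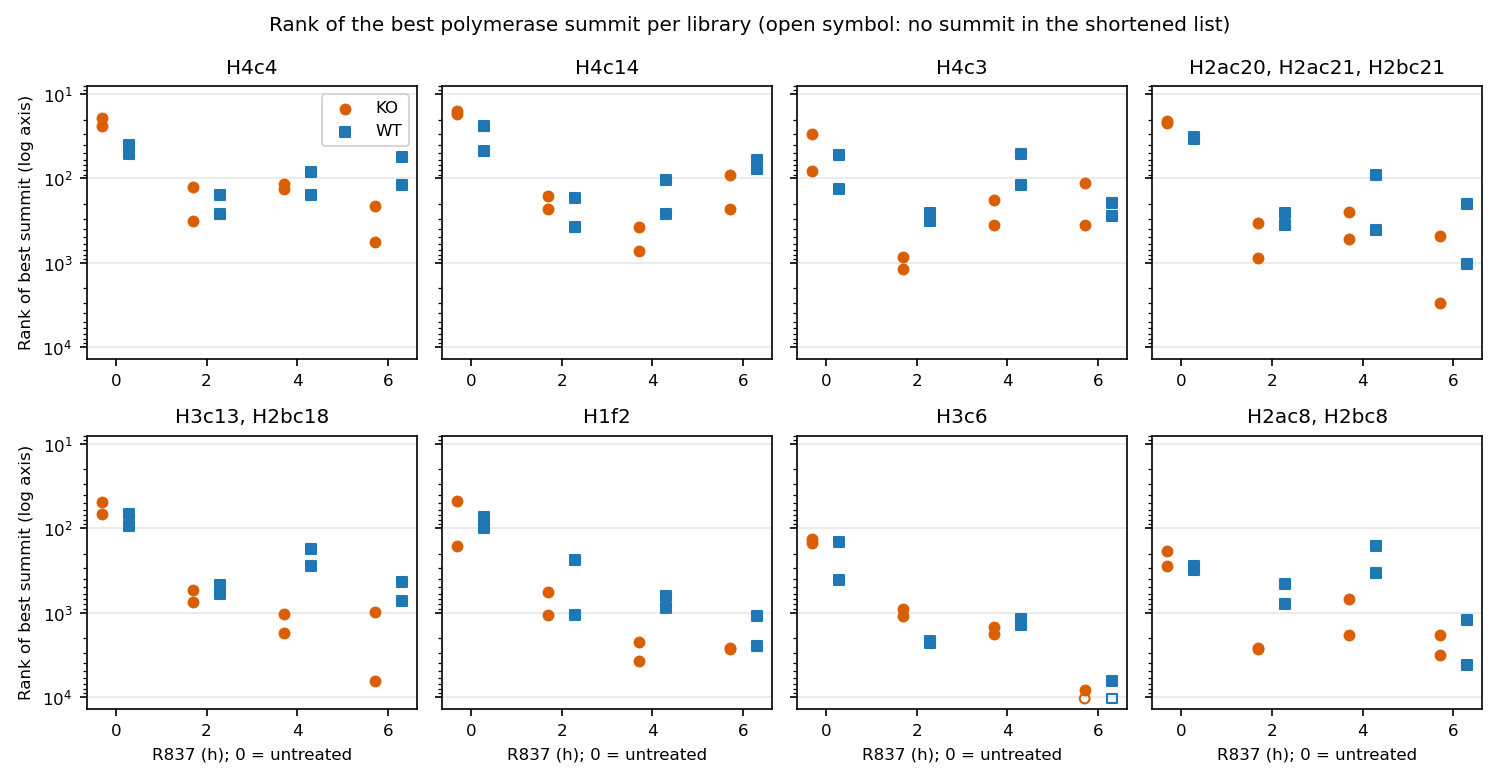
Rank of the best summit (log axis, rank 1 at the top) in every library for 8 members or sets with a shared summit, by hours of R837, with KO as circles left of WT as squares and open symbols for no listed summit. Untreated points lie at or near the top of each panel, R837 points of H4c3 and H2ac8 overlap them, and H3c6 falls off the shortened list in 2 libraries at 6 h.

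No member passed the test for a genotype difference under R837. KO and WT differed at 0 of 58 members over the 12 R837 libraries, where 0.295% of all genes were lower and 0.46% higher in KO. At an unadjusted p under 0.05 there were 13. The median KO minus WT difference of members was -0.42, against 0.11 over all genes tested, and 49 of 58 were below 0. Counts of signs and of unadjusted p over all genes are not given here. Members with a shared summit enter these counts more than once. H3c13 with H2bc18 had mean rank scores of 2.70 in KO and 4.37 in WT libraries under R837, a difference of -1.68 ± 0.44 (adjusted p = 0.122). Without the first KO library at 6 h this difference was -2.12, but KO at 6 h then rests on the second library alone. That library, which stood apart, scored 0.38 here, against 2.27 to 3.96 in the other KO libraries under R837. H4c2 had mean rank scores of 1.09 in KO and 2.51 in WT libraries, a difference of -1.42 ± 0.34 (adjusted p = 0.0911). H2ac8 with H2bc8 had 2.11 in KO and 3.61 in WT libraries (difference -1.50 ± 0.42, adjusted p = 0.143).

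In untreated cells, 1 of 58 members passed, H2ac10, an H2A gene near 23.5 Mb, where 0.767% of all genes were lower and 0.661% higher in KO, and 6 had an unadjusted p under 0.05. H2ac10 had no summit in either untreated KO list, and ranked 4109 and 5229 in the untreated WT lists (mean rank score 0.00 in KO and 0.86 in WT, difference -0.86 ± 0.13, adjusted p = 0.00656). In the untreated lists as deposited both KO libraries listed it, at 11427 and 16210, against 4109 and 5229 in WT libraries, and the difference in those lists was -1.59 and did not pass (adjusted p = 0.0568). No shortened list outside untreated WT held H2ac10, so its passage of the filter and its call rest on the same values. Its standard error comes mostly from groups at 0. With only the compared groups fitted, the difference of -0.86 did not pass (limma adjusted p = 0.716). The median difference of members was 0.50, against 0.00 over all genes tested, and 42 of 58 were above 0. Here too the counts of signs and of unadjusted p lack those of all genes, and shared summits enter more than once. Leaving out 1 untreated library, which leaves a lone library in its group, added other calls. Without the first KO library H3c10, H4c17 and H4c18 passed as higher in KO (2.16, 2.97 and 0.47), and without the second H4c18 did (1.37). Without the first WT library H4c11, H2bc3 and H2ac4 passed as higher (0.49, 2.29 and 2.27) and H2ac12 with H2bc12 as lower (-1.71), and without the second WT library H3c8 passed as lower (-1.12). H1f3 had mean rank scores of 5.0 in untreated KO and 3.02 in untreated WT libraries (difference 1.98 ± 0.67, adjusted p = 0.25).

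The difference between the responses of the genotypes passed at 1 of 58 members, again H2ac10 (0.86 ± 0.15, adjusted p = 0.0255), where 0.531% of all genes were higher and 0.366% lower. This gene was at 0 in both KO conditions, so the value restates its untreated WT level. The call was lost, with adjusted p up to 0.059, without the first KO library at 2 h or without any one of the WT libraries at 2 h and 6 h. The response in KO minus the response in WT was below 0 at 50 of 58 members, with a median of -1.08 against 0.13 over all genes tested, and 16 had an unadjusted p under 0.05. These counts also lack those of all genes, and shared summits enter more than once. For H4c14, R837 minus untreated was -3.89 in KO and -2.08 in WT. For H3c13 with H2bc18 it was -4.49 in KO and -2.33 in WT. For the trio it was -4.86 in KO and -3.17 in WT. None of these differences passed, with adjusted p of 0.452 for H4c14 and 0.381 for H3c13. Untreated and R837 comparisons enter the same difference, so the signs at the members are not independent of those above.

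Summits lay at different places in the classes, without a test between them. Over the H4 genes with 1 annotated start, 66 of 81 best summits (81.5%) lay within the gene in R837 libraries and 22 of 42 (52.4%) in untreated libraries, over partly different genes. The summit of H4c4 lay 29 to 155 bases past the start in R837 libraries and 36 to 97 in untreated ones, and that of H4c2 86 to 139 in R837 libraries and 106 to 132 in untreated ones. Others lay elsewhere: that of H4c12 was past the gene end in 3 of 4 R837 libraries that listed one, and before the start in 3 of 4 and past the end in 1 of 4 untreated libraries. The H4c9 summit was past the end in 4 of 12 R837 libraries and 1 of 4 untreated libraries, and the H4c8 summit in 1 of 12 and in 2 of 4. H3c6 summits lay from 103 bases before to 36 past the start in R837 libraries, and from 14 before to 14 past it in untreated ones. The best H1f2 summit lay past the gene end in 8 of 12 R837 libraries and in 4 of 4 untreated libraries, where it was 787 to 836 bases from the start. H1f4 was similar, with the best summit past the end in 5 of 12 R837 libraries and 3 of 4 untreated libraries. A summit within 500 bases of the start was listed at H1f2 in 5 of 12 R837 libraries and in 0 of 4 untreated libraries, and at H1f4 in 6 of 12 and in 0 of 4. H1f1 differed, with its summit in the gene in 2 of the 3 R837 libraries that listed one and in 4 of 4 untreated libraries. A caller gives the strongest base of a peak, so a broad peak across the gene and a narrow one at either end can give the same summit.

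Over members with a single start, the best summit lay within the gene in 26.7% to 54.5% of cases in R837 libraries (median 46.8%) and 28.8% to 41.2% in untreated libraries (median 37.7%). It lay past the gene end in 18.2% to 43.2% in R837 libraries and 25% to 36.5% in untreated libraries. These ranges overlapped. Of the 61 members with 1 annotated start, 15 to 27 had a summit within 500 bases of it in R837 libraries (median 20.5) and 34 to 38 in untreated libraries (median 36.5), and those ranges did not overlap. The like count for starts of all genes is not given here. All genes with a summit anywhere in their region were also fewer, at 12.3% to 26.9% in R837 libraries and 29.4% to 30.6% in untreated libraries.

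**Figure D5:**
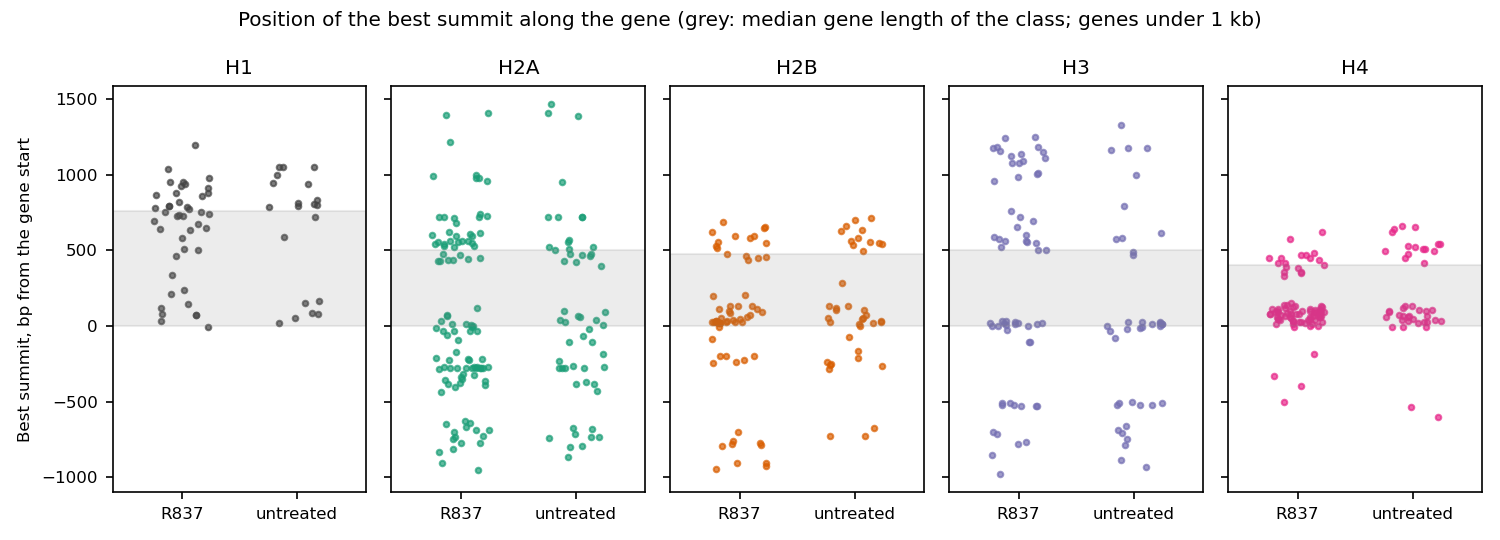
Distance of the best summit from the gene start (bp) in R837 libraries (left) and untreated libraries (right) of each panel, for members shorter than 1 kb of each class, 1 point per member and library. H4 summits lie mostly within the gene in R837 libraries (66 of 81), and H1 summits mostly in the gene or past its end. H2A, H2B and H3 summits lie also before the start, for H3 in 17 of 60 cases in R837 libraries and 19 of 38 in untreated libraries. In divergent H2A and H2B pairs the partner lies on that side.

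Genes around the histone genes in the same pathway were read from fixed lists. Of 25 regulators of histone gene expression and mRNA processing, 18 were tested, 6 fell (33.3%, against 29.5% of all genes) and 0 rose after R837, with a median change of -0.39 against -0.33 over all genes. At 2 h, 4 h and 6 h, 16.7%, 11.1% and 22.2% of them fell, against 24%, 19.8% and 23.3% of all genes. The 6 were Hinfp (H4 promoter factor), Pou2f1 (octamer factor), E2f1, Slbp, Eri1 and Ncbp1. Slbp, the protein that binds the histone mRNA stem-loop, changed by -1.71 ± 0.55 (adjusted p = 0.0278). Npat had no summit in any shortened list. Casp8ap2, which encodes FLASH, was higher in KO under R837 (1.78 ± 0.34, adjusted p = 0.0368), listed in 5 of 6 KO libraries and 0 of 6 WT libraries. Of 11 replication-independent histone genes, a list that also holds H1f0 and H1f10, 9 were tested, 5 fell (55.6%) and 0 rose, with a median of -0.48. The 5 were H2ax (-3.40 ± 0.49), H3f3b (-2.84 ± 0.43), H2az1 (-1.88 ± 0.38), H2az2 and Cenpa. H3f3b, which encodes the replacement histone H3.3, ranked 16 to 36 in R837 libraries and 1 to 5 in untreated libraries. Of 19 histone chaperone genes, 15 were tested and 4 fell (26.7%), Asf1a, Asf1b, Hira and Supt16, with a median of -0.34. Daxx, which encodes an H3.3 chaperone, was higher at 4 h (2.72 ± 0.52, adjusted p = 0.00207) and did not pass over all times (0.95 ± 0.42, adjusted p = 0.0967).

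Of 26 S-phase genes, 16 were tested, 6 fell (37.5%, against 29.5% of all genes) and 0 rose after R837, with a median of -0.27 against -0.33 over all genes. At single times 4 fell at 2 h (25%, against 24% of all genes), 2 at 4 h (12.5%, against 19.8%) and 2 at 6 h (12.5%, against 23.3%). The genes that fell were Mcm3, Mcm6 and Mcm7, which encode subunits of the replicative helicase, the licensing factor Cdt1 (-2.46 ± 0.47), the sliding clamp gene Pcna (-2.12 ± 0.51), and Slbp. Between 3 and 8 of the list had a summit in R837 libraries and 9 to 15 in untreated libraries. The median and the shares of this list were nearer to those of all genes than to those of the histone genes. Some of its genes ranked low in untreated libraries and had little room to fall. Mcm2 ranked 7958 and none in KO and 6765 and none in WT untreated libraries, and changed by -0.10. Mcm3 ranked 5821 and 7543 in KO and 5442 and none in WT untreated libraries, and changed by -0.32. The median is thus limited by untreated ranks and is no like measure of the fall at histone genes. The part of the lower number of listed S-phase genes in the histone result was not tested.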

How the data were processed

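Per the submitters' processing notes, the authors used GSNAP and MACS2 on the GRCm38 genome; versions, threshold of the calls, control and depth scaling are not given in the sources used here. The deposited lists hold, per 1-base summit, a −log10 p or q score (which of the 2 was not stated); replicates were called separately. The input library was not analysed here.

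Lists were shortened to 8394 summits. Genes were RefSeq GRCm38.p6 protein-coding spans ± 1 kb, and tied summits shared the better rank. Rank scores of the 8475 genes listed in 2 or more of 16 libraries were fitted in limma 3.58.1 (R 4.3.3) with a mean for each group, variance trend and Benjamini-Hochberg adjustment over all 8475 genes. The rank score treats a missing summit as 0. Named by rule were the 25 called members with the largest R837 change, the 5 best median ranks and the best of each class. Members with a shared summit were named together. Some other members are also named, but not all 67. The fit was tested on simulated data. Members, lists and tests were chosen with earlier results of these data known. Alternatives were list length, gene region, filter, ranking, summit number, variance model, replicate block and leaving out each library.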

Additional observations from a re-analysis of the deposited data

Results flagged for a closer look

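H2ac10 was singled out because the effect of R837 differed between KO and WT macrophages by a test of the difference itself. R837 minus untreated was 0.00 in KO and -0.86 in WT libraries, a difference of 0.86 ± 0.15 in rank score (limma adjusted p = 0.0255, n = 6 and 2 libraries per genotype). The gene had no summit in any R837 shortened list or in either untreated KO list, and ranked 4109 and 5229 in the 2 untreated WT lists. Its level in KO was thus 0 in both conditions once lists were shortened. In the lists as deposited it was present in both untreated KO libraries, at ranks 11427 and 16210, and the difference in response was 1.51 and did not pass (adjusted p = 0.131). The call was also lost with no variance trend (adjusted p = 0.0878) and in 5 of the 16 fits without 1 library (adjusted p 0.0511 to 0.059), and the sign turned with a 3 kb extension (-0.84, adjusted p = 0.753). With summits counted in place of ranks the difference kept its sign and passed (limma adjusted p = 2.39e-09), with a standard error of 0.02. The count was 0 in every shortened list outside untreated WT, the same lists that let the gene pass the filter. Counts thus had almost no spread within groups, so this small p-value does not add support to the call.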

How the results depend on the processing

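Over the alternatives run, the count of members lower after R837 over all times (50 of 58 tested) was 57 of 59 with the lists as deposited (49% of all genes lower). It was 44 with the 5000 best summits, 58 with a 3 kb extension and 37 of 51 with 1 rank per gene (12%). It was 25 with no extension (25.5%), where 40 members were tested, and 28 with summits counted (21.6%). At 2 h, 4 h and 6 h these 2 settings gave 20, 21 and 24 (no extension) and 21, 21 and 27 (summits counted), and 1 rank per gene gave 29, 27 and 34. Shares of all genes are not given here for the 5000 best summits, the 3 kb extension or single times under the alternatives, so those counts have no background beside them. Members higher were 1 at each time and overall with summits counted (H1f4 overall and at 2 h and 4 h, H2ac20 at 6 h), and 1 at 2 h with no extension (H1f2) and with 3 kb (H1f8). The median of all genes, -0.33, was -0.84 with the lists as deposited and 0.04 with 1 rank per gene. The difference in regions with a summit, -21.1, was -14.7 with the lists as deposited and -10.8 with no extension.

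With no extension the change was 1.06 at H1f2, 0.09 at H1f4, 2.67 at H2ac21 and 0.09 at H2bc21. With summits counted it was 0.15 at H1f2, 0.08 at H1f3, 0.29 at H1f4, 0.56 at H2ac20, 0.48 at H2ac21, 0.41 at H2bc21, 0.05 at H4c14 and 0.05 at H4c8. The best summits of H1f2 and H2ac21 lay outside the unextended span in every untreated library, and the cause of the other reversals was not tested. H2ac10 with 3 kb gave 1.18 for KO against WT untreated and -0.84 for the difference in response.

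Members lower in KO under R837 were 1 with 1 rank per gene (H4c2), 2 with summits counted (H3c4, H1f4) and 2 with no variance trend (H3c4, H4c2). In untreated cells, members lower in KO were 0 with the lists as deposited, 5000 summits, 3 kb, a summit in at least 4 lists, 1 rank per gene and the compared groups alone. With no extension 4 were higher (H2ac13, H3c6, H2bc3, H2ac20) and 1 was lower (H2bc8, -4.67). For the difference in response, members higher were 0 with the lists as deposited, 5000 summits, no extension, 3 kb, at least 4 lists, 1 rank per gene and no variance trend, and 3 were lower with no extension (H2ac13, H3c6, H2bc3). In both comparisons H2ac10 was listed too rarely to be tested with 5000 summits or at least 4 lists, so those counts of 0 are not failed tests of it.

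Leaving out each library in turn gave 50 to 52 members lower over all times, 40 to 47 at 2 h, 37 to 45 at 4 h and 47 to 53 at 6 h, with 0 higher. It gave 0 to 2 lower in KO under R837, 1 to 3 lower and 0 to 3 higher in KO untreated, and 0 to 3 lower and 0 to 3 higher for the difference in response. Where an arm kept 1 library, it was assumed to vary like the other groups.

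Replicate numbers did not pair the libraries: deviations of same-numbered libraries correlated at -0.11 to 0.18 over 28 pairs, with 1 above 0.1. With the replicate block 52 members were lower over all times, 46 at 2 h, 45 at 4 h and 53 at 6 h, and the H2ac10 calls were as without it. Read depth was unknown, and ranks hold no absolute level, so a lower rank can come with an equal signal where other sites rise.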
